A study of Mus musculus with 12 samples.

Results

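The genes described here are 9 transcripts used to mark macrophages that descend from blood monocytes: Plac8, Ly6c2, Vim, Vcan, Fn1, Emilin2, Tgfbi, Gda and F10. They were taken by symbol from a table of 54532 genes, each matched 1 row, and all 9 passed the filter on low counts that left 15014 genes. The measurements come from tumour-associated macrophages (TAMs) sorted from gliomas of 6 mice with the genotype label Ntv-a_Ink4a/Arf_KO, which all libraries share. Ntv-a names a transgene that places the receptor of an avian retrovirus under the promoter of nestin, a gene of neural progenitors, and Ink4a/Arf is a tumour suppressor locus. Every mouse received rhodamine-labelled perfluoro-crown-ether nanoparticles (Rhodamine_PFCE_NP) into the blood, and tumours were taken 24 hours later, so no library comes from an untreated animal. Each mouse gave 1 rhodamine-positive sort, TAMs that carried nanoparticles, and 1 rhodamine-negative sort of the same tumour, each of more than 2000 cells, which makes 12 libraries in 2 groups of 6. By their labels, 4 mice were male (1 to 4) and 2 female (5 and 6), and no age is given. The comparison asks how TAMs that took up nanoparticles differ from those that did not, with the mouse as the pair.

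Macrophages of a brain tumour have at least a pair of origins. Microglia settle in the brain before birth and renew themselves there, whereas monocytes leave the bone marrow, enter the tumour from the blood and turn into macrophages in place. Freshly arrived cells carry monocyte transcripts such as Ly6c2, Plac8 and Ccr2, and lose them as they mature, while transcripts of secreted matrix proteins such as Fn1, Vcan and Tgfbi and the filament protein gene Vim set monocyte-derived cells apart from microglia. The sort gate, as the series describes it, required CD45 and CD11b and the absence of Ly6C, the protein that Ly6c2 and its neighbour Ly6c1 encode. The same gate applied to both sorts, and no library of Ly6C-positive cells was analysed here.

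Libraries held 13073189 to 17379314 counts. The 10 general macrophage genes examined, among them Csf1r, Adgre1 and Cd68, were present in every library, with a summed level of 8500 to 16109 CPM in the negative and 16340 to 25217 CPM in the positive sorts, higher in the positive sort of 6 of 6 mice. By the test described below, 6 of the 10 were higher, among them the 3 named, Ptprc was lower and 3 did not pass. CPM is the count of a gene relative to the library total, in the usual unit of counts-per-million, scaled between libraries by TMM (trimmed mean of M values). The 13 microglia genes examined summed to 6339 to 20596 and 13384 to 22191 CPM, so both sorts contain abundant microglia transcripts. In sorted bulk samples, fewer cells of a type and less RNA per cell cannot be told apart.

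Of the 9 genes, Plac8 and Vim fell in cells carrying nanoparticles, none rose, and 7 did not pass the test. These calls use an adjusted p under 0.05 over all genes tested, in edgeR's quasi-likelihood test with the mouse as a block. Over all 15014 genes, 13.2% were called lower and 13% higher in the same fit. With 2 of 9 members called lower, the share rests on 2 genes, and nothing particular to the group is read from it. The sorts did not overlap for 2 of the 9, against 8.81% of all genes in either direction. All 6 pairs went the same way for 3 of the 9, against 28.2% of all genes. Plac8 alone was called and at least 2-fold lower, against 5.47% of all genes. None of the 9 was higher at an unadjusted p under 0.05 either, none was called higher by DESeq2 or limma, and 3 were lower at an unadjusted p under 0.05. The median log2 fold change of the 9 was -0.56, beside -0.020 over all genes tested. Each fold change sets the positive sort against the negative one on the log2 scale, and SE is the standard error of the fit. The estimates ran from -2.83 for Plac8 to 0.40 for F10, so the 9 markers did not shift as a block.

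**Figure D1:**
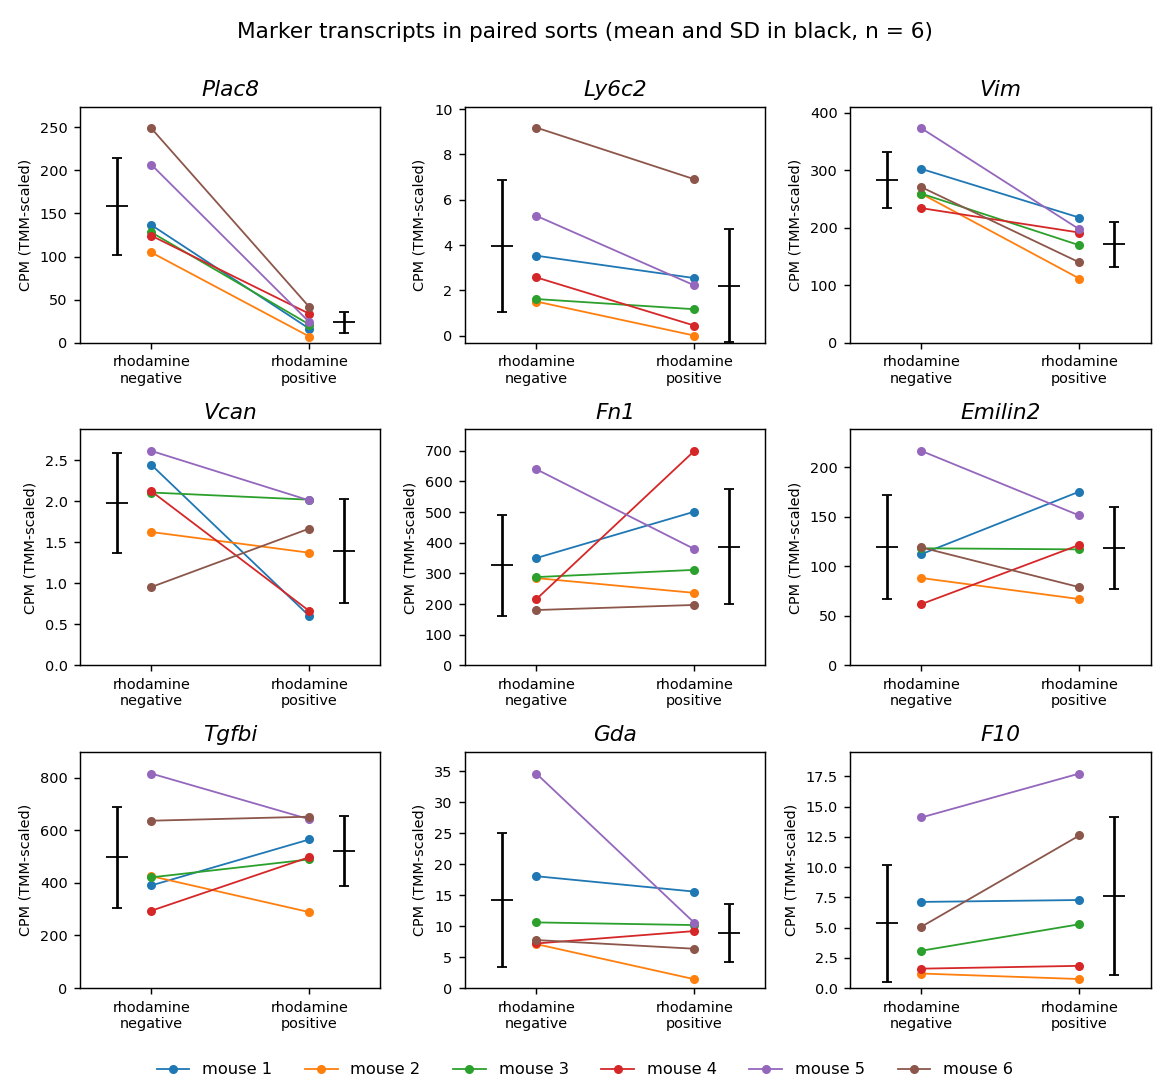
TMM-scaled CPM (vertical axes, linear) of the 9 genes in the rhodamine-negative and rhodamine-positive sort of each mouse, joined by a line, with the group mean and SD in black (n = 6). The 6 lines fall in the panels of Plac8, Ly6c2 and Vim, whereas lines of both directions cross in those of Fn1, Emilin2 and Tgfbi.

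Plac8 (ENSMUSG00000029322, chromosome 5, positions 100553725 to 100572245, minus strand, mm10) encodes a small cysteine-rich protein abundant in blood monocytes, neutrophils and plasmacytoid dendritic cells. Its level in rhodamine-negative sorts was 105 CPM at the lowest, 132 CPM at the median and 249 CPM at the highest. In rhodamine-positive sorts the same values were 7.24, 22.6 and 41.4 CPM. Every negative sort lay above every positive sort, which 4.67% of all genes tested also showed in that direction. Plac8 fell 7.09-fold, by 2.83 on the log2 scale (SE 0.20, adjusted p = 3.87e-06, n = 6 pairs), and stood 35th by p among the genes tested. The difference ranged from -3.83 in mouse 2 to -1.88 in mouse 4. Mouse 6 had the highest and mouse 2 the lowest Plac8 level in each of the sorts.

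Vim (ENSMUSG00000026728, chromosome 2, positions 13573927 to 13582826, plus strand) encodes vimentin, the intermediate filament protein of mesenchymal and many myeloid cells. Rhodamine-negative sorts ran from 234 through a median of 265 to 373 CPM, and rhodamine-positive sorts from 112 through 181 to 218 CPM. The groups again did not overlap, with the lowest negative value in mouse 4 and the highest positive value in mouse 1. Vim fell 1.67-fold, by 0.74 on the log2 scale (SE 0.12, adjusted p = 9.67e-04, n = 6 pairs). Its decrease was smaller than that of Plac8 in each mouse, from -1.21 in mouse 2 to -0.29 in mouse 4. For both genes, mouse 2 had the largest and mouse 4 the smallest difference.

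Ly6c2 (ENSMUSG00000022584, chromosome 15, positions 75108158 to 75111970, minus strand) encodes a Ly6C antigen, a lipid-anchored surface protein of inflammatory monocytes, against which the sort was gated. It was scarce, with 23 to 154 counts in the negative and 0 to 87 counts in the positive libraries. Rhodamine-negative sorts had 1.50, 3.05 and 9.19 CPM at the lowest, the median and the highest, and rhodamine-positive sorts 0, 1.69 and 6.90 CPM. The positive sort of mouse 2 held 0 counts, which at its depth allows up to 3 counts or 0.187 CPM. The groups overlapped widely, and mouse 6 stood above the other mice in both sorts. The positive sorts of mice 1 and 5 (2.54 and 2.22 CPM) exceeded the negative sorts of mice 2 and 3 (1.50 and 1.61). Within a mouse, however, the positive sort was lower in 6 of 6 pairs. A share of 14.0% of all genes tested was lower in all 6 pairs. The estimate was -1.25 (SE 0.46) and did not pass the test (adjusted p = 0.0649). It passed in 4 of 15 other settings, namely with DESeq2 (adjusted p = 0.0073), on the deposited log2 table (0.0455), with library size alone (0.0444) and without a filter on low counts (0.00124), and its adjusted p ranged up to 0.447, in the fit without the mouse as a block.

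Ly6c2 lies in a cluster of near-identical genes, so its counts depend on how reads shared with Ly6c1 and Ly6i were assigned, which is not given in the sources used here. Ly6c1, a near copy of Ly6c2 that brain endothelium also expresses, did not pass the filter. It had 77 and 191 counts in the rhodamine-positive sorts of mice 1 and 4 and at most 7 in each of the other libraries. Ly6i averaged 13.8 CPM in each sort, with a log2 fold change of -0.11 (SE 0.17) that did not pass. Ly6i was higher in mouse 6 than in the other mice in both sorts, as Ly6c2 was.

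The promoters of the 3 genes that were lower in the positive sort of every mouse are shown because no other member had the same sign in all 6 pairs, although Ly6c2 did not pass the test. Each window runs 5′ to 3′ from 250 bases before to 50 bases after a RefSeq start site (GRCm38.p6, the mm10 assembly). Capitals mark matches, on either strand, to 5 motifs: the PU.1 core GAGGAA, AP-1 TGANTCA, C/EBP TTGCNNAA, the TATA box TATAAA and Sp1 GGGCGG. PU.1 is the master transcription factor of myeloid cells. The Plac8 window is chr5:100572156-100572455 on the minus strand, the Ly6c2 window chr15:75111922-75112221 on the minus strand, and the Vim window chr2:13574061-13574360 on the plus strand.
Plac8: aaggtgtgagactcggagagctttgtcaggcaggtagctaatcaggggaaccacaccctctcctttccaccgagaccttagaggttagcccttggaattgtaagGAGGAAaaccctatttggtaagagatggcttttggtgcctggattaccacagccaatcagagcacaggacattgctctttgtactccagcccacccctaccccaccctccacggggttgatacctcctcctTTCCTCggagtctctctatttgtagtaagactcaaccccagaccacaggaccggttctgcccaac
Ly6c2: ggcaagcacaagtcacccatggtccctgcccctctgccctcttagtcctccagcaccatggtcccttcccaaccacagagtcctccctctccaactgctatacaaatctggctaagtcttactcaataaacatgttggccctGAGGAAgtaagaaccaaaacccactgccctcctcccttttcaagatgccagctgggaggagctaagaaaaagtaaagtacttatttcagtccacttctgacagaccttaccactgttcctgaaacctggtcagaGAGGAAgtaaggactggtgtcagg
Vim: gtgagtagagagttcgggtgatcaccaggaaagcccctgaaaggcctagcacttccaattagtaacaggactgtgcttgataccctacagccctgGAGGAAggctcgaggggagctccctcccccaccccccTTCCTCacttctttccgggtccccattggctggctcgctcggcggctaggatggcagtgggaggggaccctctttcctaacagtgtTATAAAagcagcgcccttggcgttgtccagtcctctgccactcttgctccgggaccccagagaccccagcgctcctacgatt
Each of the 3 windows held 2 matches to GAGGAA, read as TTCCTC on the other strand, and the Vim window also held a TATA box. No matches overlapped. The start site table held windows for 8 of the 9 members, 11 windows in all, and none for Fn1. GAGGAA was found in 5 of the 11 windows, which belong to 4 members, the 3 shown and Gda, and in 28.3% of the 32851 windows of all genes. Among the 5 are 2 overlapping windows of Ly6c2, that shown and chr15:75111888-75112187, which hold the same 2 matches. GGGCGG was found in 3 of the 11 windows, 1 each of Vcan, Emilin2 and Tgfbi, and in 35.7% of all windows. TTGCNNAA was found in 2 of the 11 windows, those of Plac8 (its other window) and Gda, and in 10.8% of all windows. TATAAA was found in 1 window, that of Vim, and in 13.6% of all windows, and TGANTCA in none of the 11 and in 7.81% of all windows. A match describes letters in a window and is no evidence of binding. The other window of Plac8, which lies inside the gene, held no GAGGAA.

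The matrix genes among the markers did not pass the test. Fn1 (ENSMUSG00000026193, chromosome 1, positions 71585520 to 71653200, minus strand) encodes fibronectin, the adhesive glycoprotein bound by integrins. Rhodamine-negative sorts had 181, 286 and 640 CPM at the lowest, the median and the highest, and rhodamine-positive sorts 197, 346 and 700 CPM. Both sorts spanned nearly the same range, but the mice moved in different directions, from -0.75 in mouse 5 to 1.70 in mouse 4. The fitted log2 fold change was 0.23 (SE 0.24, adjusted p = 0.513), and it turned to -0.052 without mouse 4.

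Emilin2 (ENSMUSG00000024053, chromosome 17, positions 71252172 to 71311978, minus strand) encodes a glycoprotein of elastic fibres and their surroundings. The negative sorts had 61.8, 115 and 216 CPM, and the positive sorts 66.9, 119 and 175 CPM. The medians were nearly equal, with 4 of 6 pairs lower and 2 higher in the positive sort. The estimate was 0.012 (SE 0.19, adjusted p = 0.974), -0.0095 without the mouse as a block and -0.15 with library size alone, so no direction can be given.

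Tgfbi (ENSMUSG00000035493, chromosome 13, positions 56609523 to 56639562, plus strand) encodes a secreted matrix protein induced by TGF-beta. Rhodamine-negative sorts had 294, 423 and 816 CPM, and rhodamine-positive sorts 289, 532 and 652 CPM. The groups overlapped, and 4 of 6 pairs were higher in the positive sort. The estimate was 0.11 (SE 0.15, adjusted p = 0.646), and it was -0.053 with library size alone and -0.024 without mouse 4.

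Vcan (ENSMUSG00000021614, chromosome 13, positions 89655312 to 89742509, minus strand) encodes versican, a large chondroitin sulfate proteoglycan made by monocytes and by glial progenitors. Only 16 to 40 counts fell on it in the negative and 9 to 29 in the positive libraries. The negative sorts had 0.954, 2.11 and 2.61 CPM, and the positive sorts 0.601, 1.52 and 2.02 CPM. The positive sort was lower in 5 mice and higher in mouse 6. The estimate was -0.56 (SE 0.40, adjusted p = 0.328). It was -0.29 without mouse 1, -0.35 without mouse 4 and -0.96 in male mice alone, and did not pass in any setting that gave a value. Fn1, Vcan and Emilin2 each overlap an annotated gene on the opposite strand, and no strand setting of the counting is given in the sources used here, so reads of the partners cannot be told apart.

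The remaining markers are enzymes. Gda (ENSMUSG00000058624, chromosome 19, positions 21391307 to 21473445, minus strand) encodes guanine deaminase, which turns guanine into xanthine. Rhodamine-negative sorts had 7.10, 9.18 and 34.6 CPM, and rhodamine-positive sorts 1.44, 9.69 and 15.6 CPM. The highest negative value was that of mouse 5 and the lowest positive value that of mouse 2, and the sorts of the other 4 mice differed by at most 0.35 on the log2 scale. The estimate was -0.65 (SE 0.30, adjusted p = 0.136). It passed without a filter on low counts (adjusted p = 0.00614) and in none of the other 14 settings, and it was -0.40 when mouse 2 was left out and also when mouse 5 was left out.

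F10 (ENSMUSG00000031444, chromosome 8, positions 13037308 to 13056676, plus strand) encodes coagulation factor X, the protease that turns prothrombin into thrombin. Rhodamine-negative sorts had 1.20, 4.08 and 14.1 CPM, and rhodamine-positive sorts 0.749, 6.28 and 17.7 CPM. F10 differed more between mice than between sorts, with mouse 5 highest and mouse 2 lowest in each sort. The estimate was 0.40 (SE 0.24, adjusted p = 0.234), with 5 of 6 pairs higher in the positive sort, and it did not pass in any of the 15 other settings. Without mouse 6 it was 0.19, and in male mice alone 0.12.

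**Figure D2:**
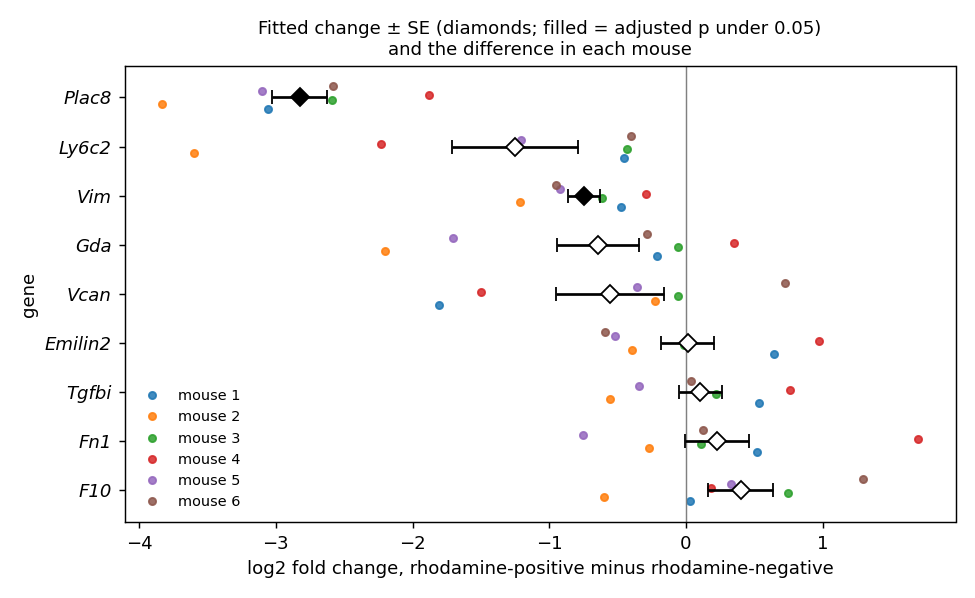
Log2 fold change of each gene, rhodamine-positive minus rhodamine-negative (horizontal axis), with the fitted value ± SE as a diamond, filled where the adjusted p is under 0.05, and the difference in each of the 6 mice as coloured points. Plac8 at -2.83 and Vim at -0.74 have filled diamonds and all 6 points below 0, as do the points of Ly6c2, whose diamond at -1.25 is open.

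Levels were set side by side only per length of exon sequence. In rhodamine-negative sorts Tgfbi came first, at 132 ± 50.9 CPM per kilobase, followed by Plac8 at 99.3 ± 35.5 and Vim at 59.8 ± 10.4 (SD, n = 6). Fn1 and Emilin2 followed at 27.9 ± 14.1 and 21.7 ± 9.53 CPM per kilobase. Gda, F10 and Ly6c2 lay at 2.28 ± 1.74, 1.97 ± 1.77 and 1.44 ± 1.07, and Vcan came last at 0.137 ± 0.042 CPM per kilobase. The neighbours Tgfbi and Plac8, Fn1 and Emilin2, Gda and F10, and F10 and Ly6c2 differed by less than the SD of either gene. In rhodamine-positive sorts Plac8 ranked 5th, at 15.1 ± 7.67 CPM per kilobase, behind Tgfbi at 139 ± 35.4, Vim at 36.1 ± 8.33, Fn1 at 33.2 ± 16.0 and Emilin2 at 21.5 ± 7.51. Plac8 was thus within its SD of the most abundant marker, Tgfbi, in the negative sorts, and of Emilin2 in the positive sorts. F10, Gda and Ly6c2 followed at 2.78 ± 2.39, 1.42 ± 0.756 and 0.807 ± 0.912, and Vcan at 0.0960 ± 0.0438 CPM per kilobase. Here the neighbours Vim and Fn1, Emilin2 and Plac8, and Gda and Ly6c2 differed by less than the SD of either gene.

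Fn1, Emilin2 and Tgfbi differed between sorts in the same direction in 4 mice. In mouse 1 the differences were 0.52, 0.64 and 0.53, and in mouse 4 they were 1.70, 0.97 and 0.76, all higher in the positive sort. In mouse 2 they were -0.27, -0.40 and -0.56, and in mouse 5 they were -0.75, -0.52 and -0.35, all lower. Mice 3 and 6 showed mixed signs. Mouse 2 had all 9 members lower in the positive sort and the lowest difference of any mouse for 6 of them, while mouse 4 had the highest difference for 6.

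**Figure D3:**
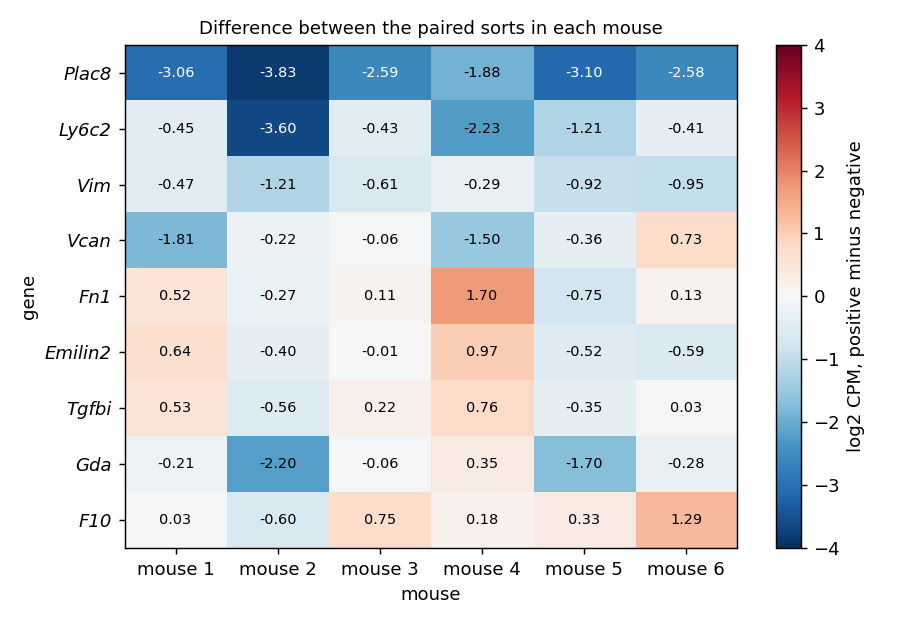
Difference in log2 CPM between the rhodamine-positive and the rhodamine-negative sort (colour and printed value) for each gene (rows) and mouse (columns). The rows of Plac8, Ly6c2 and Vim are below 0 in all 6 mice, and the rows of Fn1, Emilin2 and Tgfbi are above 0 in mice 1 and 4 and below 0 in mice 2 and 5.

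Transcripts of vessel cells, which also make fibronectin, stood high in the library with the highest Fn1 level. The rhodamine-positive sort of mouse 4 had 14.1 CPM of Ly6c1, 33.2 CPM of the endothelial tight junction gene Cldn5 and 9.13 CPM of the pericyte receptor gene Pdgfrb. The highest value in any other library was 5.14 CPM for Ly6c1, 5.90 CPM for Cldn5 and 1.11 CPM for Pdgfrb. The 8 endothelial genes summed to 105 CPM in that library, beside 30.1 to 87.1 CPM in the negative and 34.7 to 60.4 CPM in the other positive sorts. The 9 fibroblast and mural genes summed to 74.6 CPM there, beside 13.3 to 57.1 CPM in the other 11 libraries. The sort gate required CD45 and CD11b, which vessel cells do not carry, yet these transcripts were counted. The part of the vessel transcripts in the Fn1, Emilin2 and Tgfbi values was not tested. The positive sort of mouse 1 was not set apart in these sums, at 51.7 CPM of endothelial and 27.3 CPM of fibroblast and mural genes. With mice 1 and 4 left out, a choice made after seeing the data because these mice hold most Ly6c1 counts, Plac8 and Vim were again the members called lower, at -3.00 and -0.92. Fn1, Emilin2 and Tgfbi were then at -0.19, -0.37 and -0.16 and did not pass (lowest adjusted p = 0.051).

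The rhodamine-negative sort of mouse 5 stood high for most members. It had the highest level among the negative sorts for 7 of the 9 and the highest of all 12 libraries for 5, namely Vcan, Gda, Emilin2, Tgfbi and Vim. The same library had the lowest sums of general macrophage genes, 8500 CPM, and of microglia genes, 6339 CPM, and the highest sum of the 13 dendritic cell genes, 6830 CPM. Their part in the members' values was not tested. Without mouse 5, Plac8 was at -2.75 and Vim at -0.70 and both passed.

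Among 18 other markers of monocytes and monocyte-derived macrophages that were tested, 10 fell and 2 rose, with a median of -1.01. The number that rose was 1 without mouse 1, 3, 4 or 6, and 0 without the mouse as a block. Ccr2, the receptor that draws monocytes out of the marrow, went from 162 ± 92.3 to 27.4 ± 9.90 CPM, and the calcium-binding protein gene S100a6 from 69.8 ± 27.6 to 12.4 ± 3.95 CPM (SD, n = 6). S100a11 fell by 1.86 ± 0.13 and the LIM protein gene Crip1 by 1.83 ± 0.14 on the log2 scale (SE). Itgal, the integrin chain of LFA-1, and Anxa2, an annexin, had estimates of 0.021 and 0.046 and did not pass. Lgals3, a galactose-binding lectin, and Thbs1, a matrix glycoprotein, were the 2 that rose. That the share called differs between these 18 genes and the 9 members was not tested. The summed level of the 20 listed genes was lower in the positive sort of 6 of 6 mice, on average by 0.25 on the log2 scale (SD 0.24, n = 6). Lgals3, the most abundant of the 2 that rose, went from 674 to 1007 CPM on average.

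In the edgeR fit used for the calls, marker lists of macrophages of other origins held no gene that fell. Of 8 border-associated macrophage genes tested, 6 rose and none fell, with a median of 0.83, and 2 rose without the mouse as a block. Stab1, a scavenger receptor, rose by 0.92 ± 0.10 and Cbr2, a carbonyl reductase, by 1.58 ± 0.18 (SE). Of 13 microglia genes, 3 rose and none fell, with a median of 0.25, while library size alone gave 1 higher and 1 lower. Also, 1 microglia gene fell in male mice alone, 1 without mouse 5 and 1 without a filter on low counts. In the fit without the mouse as a block, 0 microglia genes rose. Cx3cr1, the fractalkine receptor, had an estimate of 0.19 that did not pass. Of 13 dendritic cell genes, 11 fell and none rose, with a median of -2.23. Their summed level spanned 3051 to 6830 CPM in the negative and 937 to 1443 CPM in the positive sorts. The list shares Siglech with the microglia list. Other lists share genes too, and F13a1, Thbs1 and Itga4 each count in more than 1 list. Cd209a, a lectin of monocyte-derived dendritic cells, fell by 3.40 ± 0.18 (SE), and Kmo, a kynurenine pathway enzyme, by 2.86 ± 0.18. Plac8 and Vim are transcribed in dendritic cells as well, and the part of those cells in their decrease was not tested.

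**Figure D4:**
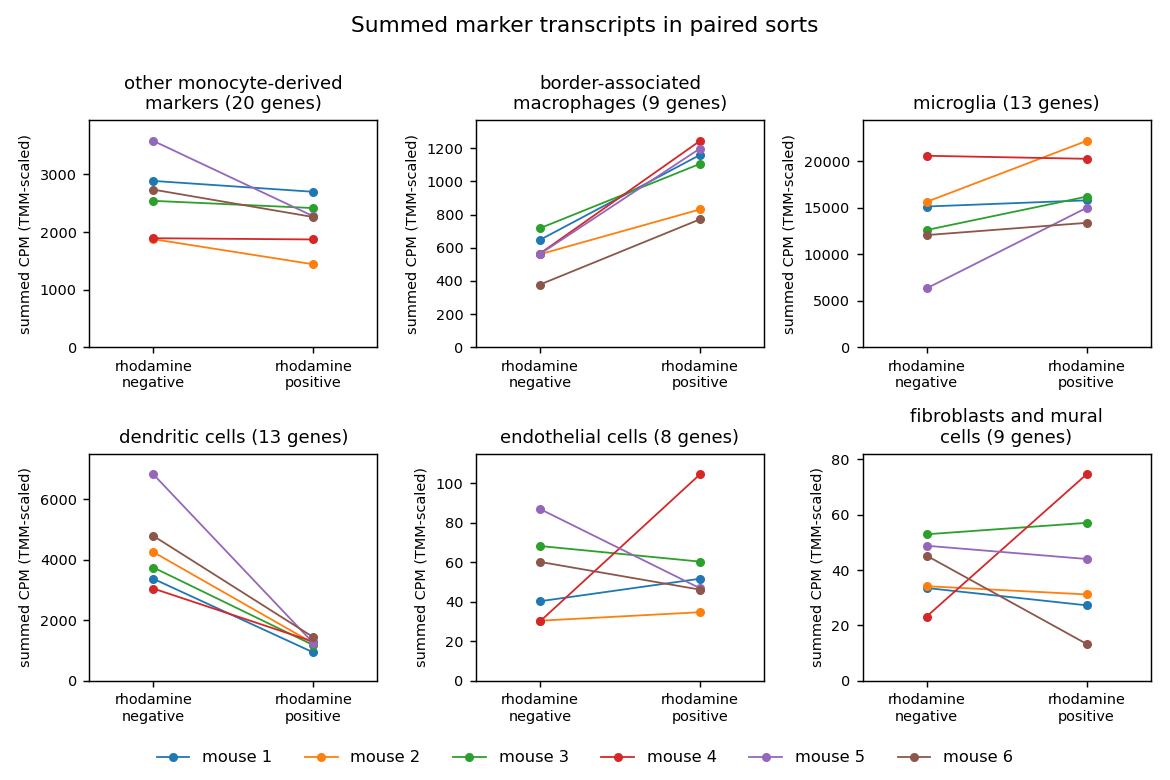
Summed TMM-scaled CPM of 6 marker lists of 8 to 20 genes each (vertical axes, linear) in the paired sorts of each mouse, joined by a line. Sums of dendritic cell genes fall and those of border-associated macrophage genes rise in 6 of 6 mice, and the endothelial and mural sums of mouse 4 stand above the others in the positive sort.

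Transcripts of further leukocytes were examined as well. Basophil and mast cell genes summed to 8.55 to 496 CPM in negative and 0.250 to 25.3 CPM in positive sorts, and NK and T cell genes to 48.0 to 113 and 8.33 to 26.2 CPM, both lower in the positive sort of 6 of 6 mice. Of 3 NK and T cell genes tested, 2 fell and Cd4 rose, by 0.90. The neutrophil genes, among which the defining gene Ly6g averaged 0.00994 CPM in the negative and 0 in the positive sorts, summed to 223 to 395 and 252 to 419 CPM. Of 4 neutrophil genes tested, Cxcr2 and Mmp9 fell by 2.42 and 3.95, Mmp8 rose by 1.52 and Csf3r did not pass. B and plasma cell genes, led by Jchain at -7.41, summed to 168 to 303 and 117 to 269 CPM. Glioma and oligodendrocyte lineage cells transcribe Vcan and Vim too, and the sort gate required CD45 and CD11b. Genes of the glioma and oligodendrocyte list were counted in every library, with summed levels of 264 to 331 and 232 to 314 CPM. Of 11 tested, 5 were lower and none higher. Astrocyte genes had 1 of 5 lower, and no endothelial or fibroblast and mural gene passed. Immediate early and heat shock genes, which cell handling induces, had 9 of 11 lower and none higher. The part of these transcripts in the members' values was not tested.

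Of 14 receptor genes for fibronectin, versican or TGFBI, 2 fell and 2 rose, beside 26.2% of all genes called in either direction, with a median of 0.063, while library size alone gave 3 lower and 0 higher. Itga4 and Itgb7, which together form a fibronectin and vascular adhesion receptor of blood leukocytes, were those that fell, by 1.27 ± 0.18 and 2.92 ± 0.17 (SE). Itga5 and Itgb1, which form the classical fibronectin receptor, had estimates of 0.038 and 0.077 and did not pass. Itgb5 and Tlr2, a receptor for versican among other ligands, rose by 0.43 and 0.34. Of 14 other matrix genes tested, 3 rose and 2 fell. Spp1, which encodes osteopontin, rose by 1.57 ± 0.14 and Ecm1 by 0.59 ± 0.12, while the brain proteoglycan genes Bcan and Ncan, relatives of Vcan, fell by 1.34 ± 0.42 and 1.13 ± 0.37.

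The TGF-beta pathway induces Tgfbi. Of 23 of its genes tested, 8 fell and 1 rose, with a median of -0.18, and 11 fell and 0 rose with library size alone. In the fit without the mouse as a block 5 fell, and in male mice alone 3 fell. The ligand gene Tgfb1 fell by 0.54 ± 0.13, and the feedback genes Skil and Bambi fell by 0.52 ± 0.08 and 1.01 ± 0.24 (SE). The ubiquitin ligase gene Smurf1 and the signal carrier gene Smad4 fell by 0.69 and 0.59. The receptor gene Tgfbr2 was the 1 that rose, by 0.33 ± 0.10, and Tgfbr1 had an estimate of -0.15 that did not pass. Over all genes tested, 26.2% were called in either direction. That share stands beside the counts of this list and of the coagulation, purine and filament lists below.

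Coagulation genes, the setting of F10, went both ways. Of 17 tested, 4 rose and 3 fell, with a median of 0.21, and 2 rose and 4 fell with library size alone. F7, the factor that activates factor X, went from 2.13 ± 2.14 to 5.64 ± 4.65 CPM (SD, n = 6) and passed at adjusted p = 0.0297. Gas6, a vitamin K-dependent ligand of phagocytic receptors, rose by 1.11 ± 0.15, and F13a1 by 0.84 ± 0.21. Thbd, the anticoagulant thrombin receptor, fell by 1.64 ± 0.39 and the thrombin receptor gene F2rl2 by 2.54 ± 0.48 (SE).

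Purine enzymes, the setting of Gda, had 4 of 17 higher and 2 lower, with a median of 0.089. The salvage enzyme genes Aprt, Adk and Hprt rose by 0.62, 0.72 and 0.44, and Nt5e, the surface enzyme that makes adenosine, fell by 1.52 ± 0.33. Of 16 filament and actin-linker genes tested beside Vim, 4 fell and 1 rose, with a median of 0.033, and 6 fell and 0 rose with library size alone. The nuclear lamin gene Lmnb1 and the leukocyte actin-binding gene Lsp1 fell by 1.29 ± 0.21 and 1.73 ± 0.14 (SE), Actn4 rose by 0.43 ± 0.12, and Msn and Tln1 had estimates of 0.26 and 0.022 that did not pass.

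Genes with the profile most like a member's were sought among genes whose log2 CPM averaged 3 or more, by the root mean square difference of centred log2 CPM over the 12 libraries. For Plac8 they were Ocstamp and S100a6, each at 0.460, beside a spread of 1.56 of Plac8 itself. For Vim they were Suox at 0.186 and Prdx6 at 0.203, and for Tgfbi Snd1 at 0.178 and Ap1g2 at 0.219. Sptbn1 came first for both Fn1 (0.349) and Emilin2 (0.198), followed by Dab2 at 0.355 and Sept9 at 0.216. The nearest genes lay farther off for Ly6c2 (Gbp4, 0.738), F10 (Adam8, 0.770) and Gda (Dok2, 0.524), and Vcan was nearest to Pde4a (0.385).

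The difference between the sorts was compared between the 4 male and the 2 female mice by an interaction term. No member passed, and neither did any of the 15014 genes in edgeR's quasi-likelihood test, of which 1160 had an unadjusted p under 0.05. The mean pair difference of Plac8 was -2.84 in males and -2.84 in females, and that of Vim -0.65 and -0.94. Emilin2 had the smallest p of the 9, with mean differences of 0.30 in males and -0.55 in females (interaction -0.86, SE 0.32, adjusted p = 0.618). With 2 female mice, the test has little precision.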

How the data were processed

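RNA of 12 sorted TAM libraries was sequenced. The authors deposited raw read counts per gene, in 1 table and, with the same values, in 12 files, 1 for each library, and log2 normalized values of 10605 genes. The submitters' processing notes name the build mm10 and the tools HISAT2 2.1.0, featureCounts 1.4.4, bcl2fastq 2.17, limma, edgeR and cutadapt. Roles, parameters and strand setting are not given in the sources used here. The deposited log2 values equalled the log2 CPM of the counts, apart from a fixed offset in each library, when counts were raised by 0.5 and totals by 1. Vcan is not among them.

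Tests used edgeR 4.0.16 in R 4.3.3 on the counts as deposited: filterByExpr (minimum count 10, minimum total 15), TMM scaling, the quasi-likelihood test with the mouse as a block, and Benjamini-Hochberg adjustment over 15014 genes at 0.05. SE is the size of the log2 fold change over the root of F. A prior count of 2 entered the log2 CPM behind pair differences. The block follows the series description, which pairs the sorts by animal. Deviations from group means correlated within mice at r = 0.226, 0.207, 0.289, 0.0775, 0.302 and 0.450 (mice 1 to 6, across genes, which are not independent). For mouse 4 this lay below the highest correlation with another mouse, 0.187. Between libraries of 1 group, chi-square per degree of freedom was at least 17.5, so no library was counted as a copy. Positions and exon lengths come from GENCODE vM21 (GRCm38, as mm10), and promoter windows from RefSeq (GRCm38.p6).

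The members and the 20 gene lists were chosen with earlier results of these data known. Named beside the members were up to 4 genes per list with the smallest p, up to 2 abundant ones that did not pass, and the 2 with the profile most like each member's. Lgals3, Tgfb1, Tgfbr2, F7, Ncan, Ly6g, Itga5 and Csf1r fall outside this rule and were named after their values were seen. On simulated counts for this comparison (14861 genes), the test recovered 12 of 100 genes set to a log2 change of 0.5 and 87 of 100 set to 1, with 1 false call in 100. The simulation gave every gene the same variability and changed only genes above a minimum mean count. Its recovery need not hold for members with large SEs, such as Ly6c2 (0.46) and Vcan (0.40). Alternatives were DESeq2 1.42.0, limma 3.58.1 (voom, or on the deposited log2 table), RLE and library-size scaling, no filter, no block, male mice alone and mice left out.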

Additional observations from a re-analysis of the deposited data

Results flagged for a closer look

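In groups of 6 libraries, the highest value was set apart when its gap to the next exceeded, as a share of the group's range, Dixon's 95% critical value, which chance passes in about 1 of 20 groups. Of 36 groups checked, 18 for the members and 18 for sums of marker lists, 4 did. Fn1 and Emilin2 stood out in the rhodamine-negative sort of mouse 5, at 640 and 216 CPM, where the next highest mice had 350 and 119 CPM. Ly6c2 was high in the rhodamine-positive sort of mouse 6, at 6.90 CPM beside 2.54 CPM in the next. The summed endothelial genes were high in the rhodamine-positive sort of mouse 4, at 105 CPM beside 60.4 CPM.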

How the results depend on the processing

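Plac8 and Vim were called lower in all 15 other settings, with estimates of -3.02 to -2.65 and -0.92 to -0.65. With no replicate block for the mouse, the call count over all genes was 2668 in place of 3941, and the members called were again 2 lower and 0 higher. Male mice alone gave 2227 genes. Leaving out each mouse in turn gave 2678 to 3600 genes, with 2 members lower and 0 higher each time. Without a filter on low counts 4 members were called lower, Ly6c2 and Gda beside Plac8 and Vim. With library size alone, the median over all genes was -0.18 and the split 852 higher and 3142 lower, beside 1955 and 1986.

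Estimates that changed sign had not passed the test. Emilin2 was at -0.0095 without the block, -0.015 on the deposited log2 table, -0.15 with library size alone, -0.12 without mouse 1, -0.18 without mouse 4 and -0.37 without mice 1 and 4. Tgfbi was at -0.053 with library size alone, -0.024 without mouse 4 and -0.16 without mice 1 and 4. Fn1 was at -0.052 without mouse 4 and -0.19 without mice 1 and 4, where Vcan was at 0.017. The summed matrix receptor genes turned to -0.15 with library size alone. With each mouse left out in turn, Emilin2 ranged from -0.18 to 0.14, Tgfbi from -0.024 to 0.24 and Fn1 from -0.052 to 0.43. The cause was not tested. The other 117 member estimates kept their direction and call, and 5 more, of Ly6c2 and Gda, passed only in the other setting. Of 600 counts over marker lists, 112 moved by more than 1.5 times. With each mouse left out in turn, 0 to 2 matrix receptor, 2 to 5 coagulation and 1 to 3 microglia genes rose. In the same fits, 0 to 3 other matrix, 3 to 6 glioma and 0 to 1 microglia genes fell. The depth is lowest for Ly6c2, with 0 to 154 counts, and Vcan, with 9 to 40, which limits the precision of their values.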
